A study of Mus musculus with 3 samples.

Results

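The cells described here are CD8 T cells of the mouse spleen with little or no transcript of Ccl5, a chemokine that memory and effector CD8 T cells make. They were picked barcode by barcode from unique molecular identifier (UMI) counts. A barcode was taken as a member with at least 1 UMI of Cd3d, Cd3e or Cd3g, at least 1 UMI of Cd8a or Cd8b1 and at most 1 UMI of Ccl5. It had to hold no UMI of Cd4, Foxp3, Trdc, Cd79a or Cd79b, and at least 500 UMIs, at least 200 genes and under 10% mitochondrial UMIs. This gave 1214 members among 35739 barcodes, with 280 in the IR+HSO library, 264 in the IR library and 670 in the Control library.

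The study sequenced RNA of single spleen cells from wild-type (WT) mice on the 10x platform, as 3 libraries, 1 for each group. IR+HSO came from mice given 8.5 Gy and HSO, which the series title spells out as hemp seed oil, and IR from mice given 8.5 Gy and a substance labelled "colvent control", read here as the vehicle, which is uncertain. Control came from mice with no irradiation. The time from irradiation to sampling, the dose and schedule of HSO and the number of mice in a library are not given in the sources used here. The series title concerns radioprotection of spleen lymphocytes, and its comparisons are read as IR against Control and IR+HSO against IR. The first differs in irradiation and also in the substance given to the IR mice, and these cannot be told apart. Since each group is 1 library, no test of a group difference could be made, and every difference below is one between libraries.

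CD8 T cells recognise peptides on MHC class I. Naive ones recirculate through lymphoid organs with the help of the chemokine receptor Ccr7, depend on IL-7, and keep the transcription factors Tcf7 and Lef1 high until antigen turns them into effector and memory cells. Lymphocytes are among the cells most easily killed by ionising radiation, which activates p53 and through it cell-cycle arrest and BH3-only death genes.

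The members held 936619 UMIs in IR+HSO, 989488 in IR and 3701705 in Control, with medians of 3054.5, 3327 and 5531 UMIs per barcode. The libraries also differed in their RNA makeup within the members. Ribosomal protein genes took 23.5% of UMIs in IR+HSO, 25.6% in IR and 31.4% in Control, ribosomal RNA 4.81%, 1.10% and 3.298%, and immunoglobulin genes 0.768%, 0.271% and 0.0819%. No barcode sequence was shared between members of different libraries, while each pair of whole libraries shared 34 to 54.

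The 5 markers given for these cells were found in all 3 libraries, but not to a like degree. Lef1 stood at 547 CPM in IR+HSO, 619 CPM in IR and 675 CPM in Control, and Ccr9, a gut-homing chemokine receptor, at 188 CPM in IR+HSO, 172 CPM in IR and 213 CPM in Control (CPM, UMI counts scaled to the members' total in each library). Cd8a, at 639.5, 549 and 507 CPM in the same order, and Cd8b1, at 689, 808 and 971 CPM, were used to choose the members. Dapl1, a gene that is high in naive CD8 T cells, was far lower in the irradiated libraries and is taken up below. Markers of other cells were not at 0 in the members. The natural killer (NK) list of 9 genes summed to 208 CPM in IR+HSO, 382 CPM in IR and 137 CPM in Control members, against 13088 CPM to 21386 CPM in NK barcodes. The 7 CD4 T cell markers other than Cd4 summed to 685 CPM in IR+HSO, 559 CPM in IR and 186 CPM in Control members, and to 441, 456 and 162 CPM in members with at least 2 CD8 UMIs. The B cell list summed to 283 CPM in IR+HSO, 1074 CPM in IR and 789 CPM in Control members, with Ms4a1 at 0 in IR+HSO and Pax5 at 0 in IR, and the dendritic cell list to 711, 1572 and 776 CPM, with Siglech at 0 in both irradiated libraries. For scale, the members' own 5 markers summed to 2081, 2223 and 2858 CPM. The plasma cell list, which holds immunoglobulin genes, summed to 7226 CPM in IR+HSO, 2372 CPM in IR and 728 CPM in Control members, to 2424, 1844 and 724 CPM in members with at least 2 CD8 UMIs, and to 2835, 2671 and 727 CPM in members without Mki67 or Top2a. Mzb1 of that list was at 0 in all 3 libraries. The part of such cells in the results below was not tested beyond these values.

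The members were marked less firmly in the irradiated libraries, where they also held fewer UMIs in all. Just 1 UMI of Cd8a and Cd8b1 together had admitted 111 of 280 members in IR+HSO (39.6%), 124 of 264 in IR (47.0%) and 67 of 670 in Control (10.0%), while 79, 87 and 453 members held 6 or more. Of NK barcodes, taken as a background, 3.42% had at least 1 CD8 UMI in IR+HSO, 2.23% in IR and 3.25% in Control, and at least 2 were found in 0.381%, 0.171% and 0.407% (median 3441, 2734.5 and 3861 UMIs per barcode). The shares were higher among Cd4-positive T cells gated like the members but with no condition on CD8 or Ccl5, at 5.68%, 7.55% and 10.9% with at least 1 CD8 UMI and 1.69%, 1.53% and 2.86% with at least 2 (median 3416.5, 3646 and 5136.5 UMIs). Whether free RNA or doublets gave these UMIs was not tested. The main results are also given for the 169, 140 and 603 members with at least 2 CD8 UMIs. At the Ccl5 limit, members with exactly 1 Ccl5 UMI numbered 85 in IR+HSO, 104 in IR and 82 in Control, and barcodes just outside, with 2, numbered 41, 58 and 21. No doublet caller was run, and the exclusion of Cd4, Foxp3, Trdc and Cd79 transcripts stood in for one. Leaving out the barcodes above the 95th percentile of UMIs in each library gave member shares of 3.52% in IR+HSO, 2.76% in IR and 15.96% in Control.

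Ccl5-low CD8 T cells were scarce in both irradiated spleens. They made up 3.44% of Cd3-positive barcodes in IR+HSO (280 of 8150, exact 95% binomial interval 3.05% to 3.85%), 2.72% in IR (264 of 9696, 2.41% to 3.07%) and 15.3% in Control (670 of 4376, 14.3% to 16.4%). The share was 5.62-fold lower in IR than in Control (4.87 to 6.51) and 4.46-fold lower in IR+HSO than in Control (3.87 to 5.14). IR+HSO over IR gave a ratio of 1.26 (1.06 to 1.499). Taken over all barcodes past the filters on UMIs, genes and mitochondrial share, the share was 3.597-fold lower in IR than in Control (3.11 to 4.16) and 2.79-fold lower in IR+HSO than in Control (2.43 to 3.22), and the ratio of IR+HSO over IR was 1.29 (1.08 to 1.53). Of barcodes with both Cd3 and CD8 UMIs, which Cd79 transcripts thinned out most in Control, members were 29.5% in IR+HSO, 25.4% in IR and 42.7% in Control. The intervals here, and all those below, cover counting error only, not the spread between mice, and the shares say nothing of absolute cell numbers.

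With a firmer CD8 mark, read on raw UMIs, the gap to Control was wider. Members were also deeper in Control (median 5531 UMIs) than in IR+HSO (3054.5) or IR (3327), and a deeper barcode meets a minimum more easily. Read at 1000 UMIs per barcode, the rule with at least 1 CD8 UMI gave 3.90% in IR+HSO, 3.41% in IR and 20.8% in Control. No share with a higher CD8 minimum was read at one depth. With at least 2 CD8 UMIs the shares were 2.07% in IR+HSO, 1.44% in IR and 13.8% in Control, or ratios of 0.1505 for IR+HSO over Control and 0.105 for IR over Control. With at least 6 they were 0.969% in IR+HSO, 0.897% in IR and 10.4% in Control, so the IR+HSO and IR libraries lay within each other's intervals there. Against the Ccl5-positive CD8 T cells, picked by the same rule with at least 2 Ccl5 UMIs, the balance also differed. Ccl5-positive cells were 52.8% of both kinds together in IR+HSO (313 of 593), 55.3% in IR (327 of 591) and 18.2% in Control (149 of 819). Members with exactly 1 Ccl5 UMI were 30.4% in IR+HSO, 39.4% in IR and 12.2% in Control. Whether free Ccl5 RNA moved barcodes across the limit was not tested, for this balance or for the shares above.

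**Figure D1:**
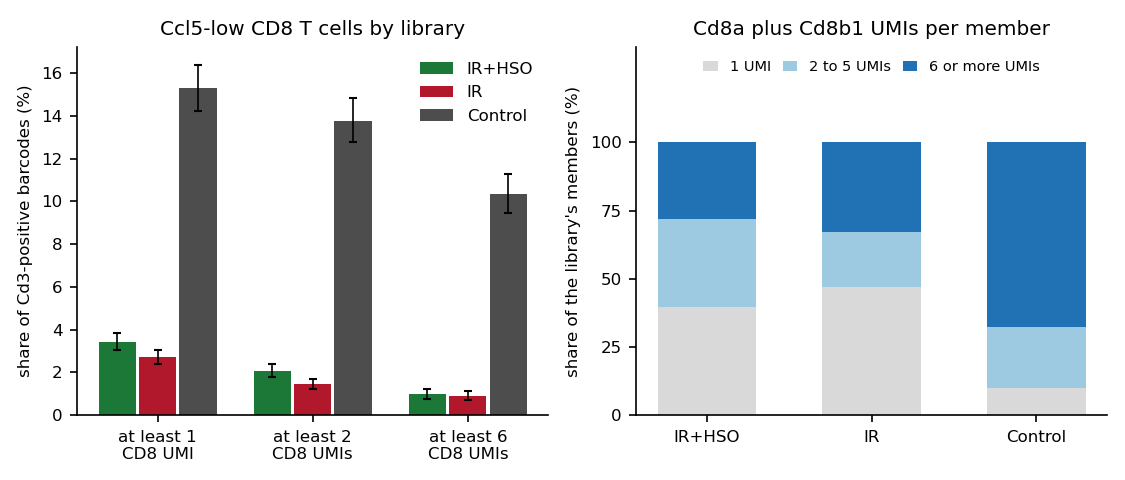
Left, share of Cd3-positive barcodes (%) that are Ccl5-low CD8 T cells in the IR+HSO, IR and Control libraries, at 3 minimums of Cd8a plus Cd8b1 UMIs, with exact 95% binomial intervals (counting error only). Right, share of each library's members (%) with 1, 2 to 5 and 6 or more such UMIs: IR+HSO and IR members sit at 2.72% to 3.44% on the left, against 15.3% in Control, and hold 39.6% and 47.0% of members with 1 UMI, against 10.0% in Control.

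Naive and homing genes are described first, against the share of all genes that differed. A gene was measured in a pair of libraries with at least 20 CPM in either, and it is said to have risen or fallen when its ratio of CPM + 1 was at least 2-fold. Folds and ratios printed with an interval are plain ratios of CPM with nothing added, and log2 ratios those of CPM + 1. By that rule 486 of 6425 genes rose in IR over Control (7.56%) and 75 fell (1.17%), 222 of 6843 rose in IR+HSO over IR (3.24%) and 226 fell (3.3%), and 647 of 6631 rose in IR+HSO over Control (9.76%) and 130 fell (1.96%). In either direction that is 8.73%, 6.55% and 11.7% of genes. Among members with at least 2 CD8 UMIs 8.49% rose and 1.89% fell in IR over Control (10.4% together), 4.91% rose and 4.25% fell in IR+HSO over IR (9.16%), and 11.1% rose and 2.31% fell in IR+HSO over Control (13.4%). Scaling the libraries by trimmed means (TMM) instead would shift every log2 ratio by -0.25, -0.05 and -0.31 in these comparisons. It would turn the split of higher and lower genes to 333 and 170 in IR over Control, to 160 and 242 in IR+HSO over IR, and to 333 and 276 in IR+HSO over Control. Leaving immunoglobulin, pancreatic, haemoglobin, mitochondrial and ribosomal genes out of the total would turn it to 492 and 162 in IR over Control and to 424 and 254 in IR+HSO over IR.

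Of the 18 genes in the naive and homing list, all measured, Igfbp4 rose and Dapl1 fell in IR over Control, and the list's median log2 ratio was -0.08, beside 0.22 over all genes. That is 2 of 18 genes past 2-fold, near the 8.73% of all genes. Ccr7, which guides T cells into lymphoid tissue, stood at 288 CPM in IR+HSO, 213 CPM in IR and 203 CPM in Control. The IL-7 receptor gene Il7r stood at 625, 483 and 569.7 CPM and Tcf7, which maintains the naive and stem-like state, at 528, 473 and 455 CPM in the same order. None of these passed 2-fold in any pair. Dapl1 alone of the 18 fell in IR+HSO over IR and none rose, with a median of 0.18 beside 0.03 over all genes, and in IR+HSO over Control Igfbp4 and Itgae rose and Dapl1 fell (0.15 beside 0.26). The gene S1pr1, whose product lets T cells leave lymphoid organs, was at 384 CPM in IR+HSO, 258 CPM in IR and 305 CPM in Control, and IR+HSO over IR gave a ratio of 1.49 (1.27 to 1.76).

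Dapl1 was the naive gene that differed most. It had 17 UMIs from 10 barcodes in IR+HSO, 75 from 28 in IR and 1822 from 378 in Control. That is 18.2 CPM in IR+HSO, 75.8 CPM in IR and 492 CPM in Control. Dapl1 thus fell 6.49-fold (5.15 to 8.29) in IR against Control and a further 4.18-fold (2.44 to 7.54) in IR+HSO against IR. The order was the same in members with at least 2 CD8 UMIs, at 23.3, 99.4 and 517 CPM in IR+HSO, IR and Control, and in naive-like CD4 T cells of the same libraries (Cd4-positive, CD8-negative, Ccl5-low and gated further on naive-cell markers), at 35.1, 79.1 and 319 CPM. With each barcode thinned to 1000 UMIs, 0.758% of members in IR+HSO, 4.12% in IR and 29.7% in Control had a Dapl1 UMI (3.57%, 10.6% and 56.4% unthinned), against 0.0817%, 0.199% and 0.424% of NK barcodes, which should lack it. Igfbp4, a binding protein of insulin-like growth factors, ran the other way, at 540.2 CPM in IR+HSO, 471 CPM in IR and 96.4 CPM in Control, and rose 4.88-fold (4.25 to 5.62) in IR over Control. Itgae, the integrin chain CD103, was at 95.02 CPM in IR+HSO, 63.7 CPM in IR and 37.6 CPM in Control and rose 2.53-fold (1.92 to 3.33) in IR+HSO over Control, while its IR over Control ratio of 1.696 (1.24 to 2.299) did not pass.

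**Figure D2:**
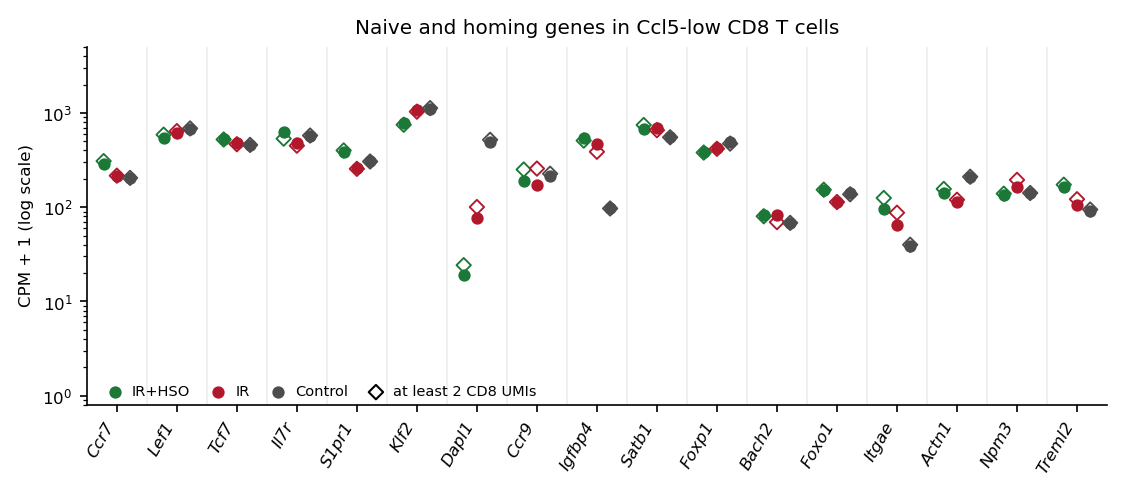
Level of 17 of the naive and homing genes (CPM + 1, log axis) in Ccl5-low CD8 T cells of the IR+HSO, IR and Control libraries, with filled points for all members and open diamonds for members with at least 2 CD8 UMIs. Dapl1 is at 18.2, 75.8 and 492 CPM in all members, Igfbp4 at 540.2, 471 and 96.4 CPM, and the other genes lie closer together.

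Targets of p53 were higher in both irradiated libraries than in Control. Of 28 listed targets 21 were measured in IR over Control, and 14 rose and none fell, with a median log2 ratio of 1.34 beside 0.22 over all genes. The count was 13 of 21 with a median of 1.45 in members with at least 2 CD8 UMIs, and 15 of 22 with 1.83 in members without Mki67 or Top2a. Of 20 measured in IR+HSO over Control 13 rose, with a median of 1.52 beside 0.26 over all genes. Between IR+HSO and IR none of 21 rose and Plk2 alone fell, and the median was -0.04 beside 0.03.

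Cdkn1a, the p21 inhibitor of cyclin-dependent kinases, had 112 UMIs in 68 barcodes of IR+HSO, 152 in 77 of IR and 4 in 3 of Control. These are 119.6 CPM in IR+HSO, 154 CPM in IR and 1.08 CPM in Control, a rise of 142-fold (54.4 to 528) in IR over Control. Phlda3, a p53-induced inhibitor of Akt, was at 64.1 CPM in IR+HSO and 90.96 CPM in IR, and had no UMI in Control, so that it was at least 79.04-fold and 112-fold higher there against a floor of 3 counts in the Control library. The RNA-binding protein gene Zmat3, at 139.9 CPM in IR+HSO, 136 CPM in IR and 10.8 CPM in Control, rose 12.6-fold (8.81 to 18.4) in IR over Control. Bax, the pore-forming death effector, was at 392 CPM in IR+HSO, 519 CPM in IR and 126 CPM in Control and rose 4.12-fold (3.63 to 4.68). The BH3-only gene Bbc3 (PUMA) rose 4.78-fold (3.55 to 6.45), at 107 CPM in IR against 22.4 CPM in Control, and cyclin G1 (Ccng1), at 142 CPM in IR+HSO, 159 CPM in IR and 39.7 CPM in Control, rose 3.996-fold (3.17 to 5.04). Aen, a p53-induced nuclease, and Trp53inp1 rose to 105 and 207 CPM in IR, against 26.7 and 81.3 CPM in Control.

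Not all targets followed. The p53 ubiquitin ligase gene Mdm2 was at 76.9 CPM in IR+HSO, 66.7 CPM in IR and 43.8 CPM in Control, a ratio of 1.52 (1.13 to 2.04) in IR over Control that did not reach 2-fold. Btg2, an antiproliferative gene that is also an immediate-early gene, was at 291 CPM in IR+HSO, 435 CPM in IR and 509 CPM in Control, and Sesn1, a sestrin of the stress response, at 67.3 CPM in IR+HSO, 41.4 CPM in IR and 55.1 CPM in Control. Between the irradiated libraries, Bax gave a ratio of 0.754 (0.658 to 0.864), and Phlda3 0.704 (0.499 to 0.987) in IR+HSO over IR, both under 2-fold. Over the same pair Bax was at 441 and 466 CPM in NK barcodes, and Cdkn1a at 220.3 and 199 CPM.

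The promoters of 3 risen targets are shown because p53 binds DNA motifs that often lie near the start of its targets. The sequences are from RefSeq on build GRCm38.p6, whereas the expression files use GRCm39, and run from 250 bases before the listed start to 50 after it. Capitals mark matches of the p53 half-site, searched on both strands. A full p53 site holds 2 half-sites, and full sites were not searched. They lie at chr17:29090729-29091028 (plus strand) for Cdkn1a, with matches starting 73 and 51 bases before the start, at chr11:40755237-40755536 (minus strand) for Ccng1, 185 bases before, and at chr7:45466849-45467148 (minus strand) for Bax, 201 bases before.
Cdkn1a: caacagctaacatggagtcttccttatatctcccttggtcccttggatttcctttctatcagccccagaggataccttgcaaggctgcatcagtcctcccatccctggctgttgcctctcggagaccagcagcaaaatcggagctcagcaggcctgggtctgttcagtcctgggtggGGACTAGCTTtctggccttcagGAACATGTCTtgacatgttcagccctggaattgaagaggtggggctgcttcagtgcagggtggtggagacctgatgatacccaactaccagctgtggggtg
Ccng1: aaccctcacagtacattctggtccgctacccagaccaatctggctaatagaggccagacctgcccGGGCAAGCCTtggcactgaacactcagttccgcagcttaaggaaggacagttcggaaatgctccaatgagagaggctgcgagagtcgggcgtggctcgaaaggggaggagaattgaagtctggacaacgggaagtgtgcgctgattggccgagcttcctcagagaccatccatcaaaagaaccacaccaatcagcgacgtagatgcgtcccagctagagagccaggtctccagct
Bax: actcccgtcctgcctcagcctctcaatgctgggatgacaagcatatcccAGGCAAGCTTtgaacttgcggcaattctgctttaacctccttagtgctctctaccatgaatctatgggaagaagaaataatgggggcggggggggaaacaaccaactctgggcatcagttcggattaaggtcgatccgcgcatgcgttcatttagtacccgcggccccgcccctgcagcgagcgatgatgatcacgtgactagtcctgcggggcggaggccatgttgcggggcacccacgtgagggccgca
Of the 28 listed targets 20 had a promoter sequence and 10 of those held a half-site match, as did 7 of 12 found among the 14 risen targets. Among all genes with a promoter sequence 2582 of 27025 did (9.55%). The list is made of genes known as p53 targets, so its share of matches says nothing of the members. Of the 12 highest genes in IR over Control, named below, 7 had a promoter sequence and 1, Cdkn1a, held a match. A gene was counted if any of its promoters held a match, so genes with several promoters had more room for one. This describes letters in a window and shows no binding.

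**Figure D3:**
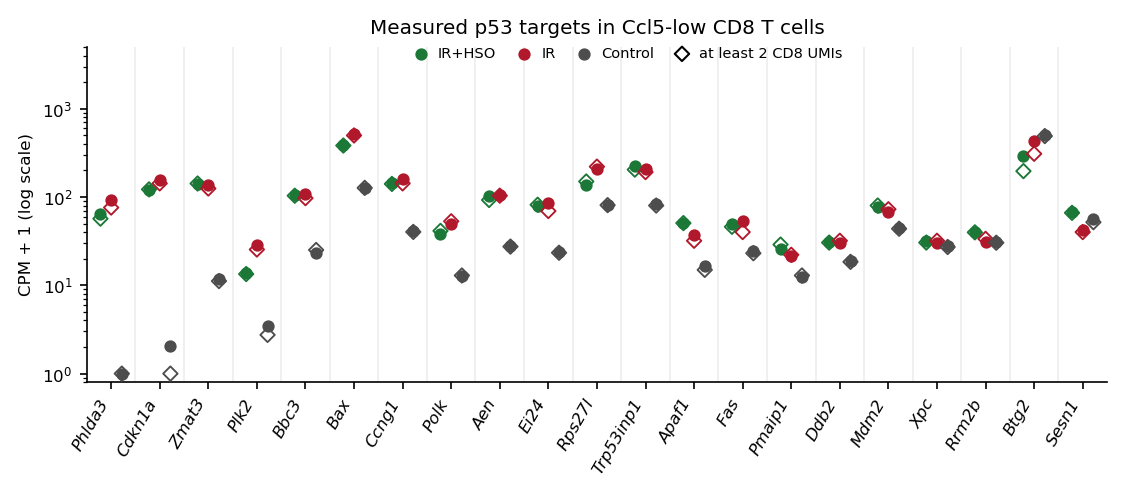
Level of each measured p53 target (CPM + 1, log axis) in Ccl5-low CD8 T cells of the IR+HSO, IR and Control libraries, in order of the IR over Control ratio, with filled points for all members and open diamonds for members with at least 2 CD8 UMIs. Phlda3, Cdkn1a and Zmat3 lie apart by the most, with 139.9 and 136 CPM of Zmat3 in IR+HSO and IR against 10.8 CPM in Control, while Btg2 and Sesn1 do not exceed Control in IR.

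Genes of both sides of the Bcl2 family stood higher after irradiation. Bcl2, the survival protein that IL-7 sustains in naive T cells, was at 1931 CPM in IR+HSO, 1371 CPM in IR and 242 CPM in Control. It rose 5.67-fold (5.21 to 6.18) in IR over Control and 7.99-fold (7.37 to 8.66) in IR+HSO over Control, and was detected in 261 of 280, 231 of 264 and 381 of 670 members. IR+HSO over IR gave a ratio of 1.41 (1.31 to 1.51), under the threshold. NK barcodes had 1171, 1094 and 335 CPM and naive-like CD4 T cells 1632, 1406 and 210.4 CPM in IR+HSO, IR and Control. Of the other 6 measured survival genes none rose in IR over Control, and Mcl1 stood at 336 CPM in IR+HSO, 397 CPM in IR and 326 CPM in Control. Birc3, an inhibitor of apoptosis induced by NF-kB, rose in IR+HSO over IR, at 44.8 against 21.2 CPM. Of 6 measured pro-apoptotic members Bax, Bbc3 and Bcl2l11 rose in IR over Control, and Pmaip1 as well in IR+HSO over Control. Bcl2l11 (BIM), which restrains naive T cell survival, was at 148 CPM in IR+HSO, 135.4 CPM in IR and 56.2 CPM in Control.

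Interferon-induced genes were higher in part. In IR over Control 8 of 23 measured genes rose and none fell (median 0.65 beside 0.22), in IR+HSO over Control 11 of 24 rose and the GTPase gene Gbp2 fell (0.79 beside 0.26), and in IR+HSO over IR Cxcl10 alone of 24 rose (0.16 beside 0.03). With at least 2 CD8 UMIs the counts were 8 of 22, 10 of 23 and 0 of 23. The antiviral GTPase gene Mx1 was at 36.3 CPM in IR+HSO, 40.4 CPM in IR and 4.59 CPM in Control, Isg15, a ubiquitin-like modifier, at 87.5 CPM in IR+HSO, 93.99 CPM in IR and 31.3 CPM in Control, and Ifit3 at 60.9 CPM in IR+HSO, 44.5 CPM in IR and 15.7 CPM in Control. Ifi27l2a, at 537 CPM in IR+HSO, 506 CPM in IR and 209.9 CPM in Control, rose 2.41-fold (2.15 to 2.702) in IR over Control. None of the 15 measured MHC class I genes rose or fell in IR over Control, and Nlrc5, their transactivator, alone rose in IR+HSO over Control, at 162 against 64.8 CPM.

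Memory and effector genes moved both ways. In IR over Control 5 of 20 measured rose (Il2rb, Ly6a, Id2, Klrk1 and S100a6) and 3 fell (Eomes, Klrd1 and Ccl4), with a median of 0.45 beside 0.22. Il2rb, the IL-2 and IL-15 receptor beta chain, was at 284 CPM in IR+HSO, 168 CPM in IR and 82.1 CPM in Control, but in members with at least 2 CD8 UMIs its IR over Control ratio no longer reached 2-fold, at 117 against 83.4 CPM. Ly6a (Sca-1), an interferon-responsive surface protein, was at 195 CPM in IR+HSO, 122 CPM in IR and 25.1 CPM in Control, and Id2, a transcriptional regulator of effector cells, at 196 CPM in IR+HSO, 249.6 CPM in IR and 103 CPM in Control. Eomes, a transcription factor of memory CD8 T cells, was at 10.7 CPM in IR+HSO, 23.2 CPM in IR and 57.3 CPM in Control, and Klrd1, the CD94 receptor chain, at 39.5 CPM in IR+HSO, 64.7 CPM in IR and 174 CPM in Control, so both were lowest in IR+HSO. With at least 2 CD8 UMIs 5 of 17 rose in IR over Control and 2 fell, and Eomes did not pass, at a log2 ratio of -0.72. Cd44, the common marker of antigen experience, was at 24.6, 27.3 and 22.96 CPM in the same order, and Cxcr3 at 19.2, 22.2 and 14.9 CPM. Ly6c2, at 232 CPM in IR+HSO, 144 CPM in IR and 273 CPM in Control, took 47.9% of its IR+HSO UMIs from 1 barcode. None of 20 rose in IR+HSO over IR and 5 fell, namely Eomes, Klrk1, Cxcr6, Zeb2 and Xcl1, of which Cxcr6, a chemokine receptor of tissue-resident and innate-like T cells, was at 6.41 CPM in IR+HSO, 33.4 CPM in IR and 44.6 CPM in Control. Eomes and Cxcr6 alone of 15 fell in IR+HSO over IR with at least 2 CD8 UMIs (median -0.07). Of 17 measured in IR+HSO over Control 3 rose and 4 fell (0.31 beside 0.26).

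Granzyme transcripts were counted in these cells in the irradiated libraries, and in other lymphocytes there. Gzma was at 106 CPM in IR+HSO, 178 CPM in IR and 6.21 CPM in Control and Gzmb at 60.9 CPM in IR+HSO, 73.8 CPM in IR and 0.2701 CPM in Control, and of the 7 measured cytotoxicity genes these alone rose in IR over Control, the granule pore gene Prf1 falling in IR+HSO over Control. At 1000 UMIs per barcode, 12.9% of members in IR+HSO, 21.4% in IR and 0.601% in Control had a Gzma UMI. In B barcodes, which should lack it, the shares were 5.39%, 9.402% and 1.88%, and in naive-like CD4 T cells 8.34%, 18.4% and 1.05%. Median depths before thinning were 3054.5, 3327 and 5531 UMIs in members and 8735.5, 7625.5 and 3676 in B barcodes. Immunoglobulin genes took 56.6%, 60.6% and 4.08% of UMIs in B barcodes, and 0.768%, 0.271% and 0.0819% in members. At 1000 UMIs, B barcodes of the irradiated libraries thus kept fewer UMIs of other genes than members did, which lowers their granzyme shares. For Gzmb the shares were 4.55%, 9.47% and 0.1502% in members and 1.796%, 2.56% and 0.242% in B barcodes. The Control shares are below those of B barcodes and so at background, and how much of the irradiated shares is free RNA was not tested.

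Proliferation genes were higher in the irradiated libraries, and most Mki67 and Top2a UMIs came from few members. In IR over Control 20 of 21 measured genes rose (median 2.71 beside 0.22), with Top2a at 139.9 CPM in IR+HSO, 312 CPM in IR and 17.3 CPM in Control, Mki67 at 161 CPM in IR+HSO, 214 CPM in IR and 20.8 CPM in Control and Stmn1, a regulator of microtubules, at 244 CPM in IR+HSO, 482 CPM in IR and 29.4 CPM in Control. Members with at least 3 UMIs of Mki67 and Top2a numbered 9 of 280 in IR+HSO (3.21%), 20 of 264 in IR (7.58%, 4.69% to 11.5%) and 9 of 670 in Control (1.34%, 0.616% to 2.53%), and carried 93.6%, 95.2% and 73.8% of these UMIs. Members with at least 1 such UMI numbered 23 of 280 in IR+HSO (8.21%), 39 of 264 in IR (14.8%) and 41 of 670 in Control (6.12%). Leaving them out removes Mki67 and Top2a themselves by construction. Without these members, 4 of 11 measured genes rose in IR over Control and the median was 0.92. In IR+HSO over IR 7 of 21 fell and none rose (median -0.94 beside 0.03), and in IR+HSO over Control 10 of 18 rose (1.25 beside 0.26), but none of 10 without the cycling members (-0.15). Of 18 measured repair genes 5 rose in IR over Control, among them Brca1 and the DNA ligase gene Lig1, which cycling cells use, and 1 of 14 rose without cycling members.

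Some immediate-early and heat-shock genes fell in IR+HSO against both other libraries. In the list of AP-1 and stress genes 5 of 17 measured fell and none rose in IR+HSO over IR (median -0.70 beside 0.03), 7 of 17 fell and none rose in IR+HSO over Control (-0.73 beside 0.26), and none rose or fell in IR over Control (-0.25 beside 0.22). With at least 2 CD8 UMIs, 4 of 17 fell in IR+HSO over IR (-0.36) and 3 of 17 in IR over Control. Fos, a subunit of the AP-1 transcription factor, was at 122 CPM in IR+HSO, 331 CPM in IR and 426 CPM in Control, and its partner Fosb at 45.9 CPM in IR+HSO, 140.5 CPM in IR and 227 CPM in Control. The constitutive chaperone gene Hspa8, at 456 CPM in IR+HSO, 1022 CPM in IR and 1096 CPM in Control, fell 2.24-fold (1.999 to 2.52) in IR+HSO against IR. Hsp90aa1, an HSP90 chaperone, was at 305 CPM in IR+HSO, 704 CPM in IR and 589 CPM in Control, and the stress-induced Hspa1a at 36.3 CPM in IR+HSO, 86.9 CPM in IR and 144 CPM in Control. Jun, at 354 CPM in IR+HSO, 700.4 CPM in IR and 763 CPM in Control, reached a log2 ratio of -0.98, just short of the threshold.

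The difference was also seen in other cells of the same libraries. In NK barcodes the log2 ratios of IR+HSO over IR were -1.06 for Hspa8, -1.43 for Hsp90aa1 and -0.73 for Fos, and in naive-like CD4 T cells -1.29, -1.37 and -1.28, beside -1.16, -1.20 and -1.44 in the members. These genes also respond to the handling of tissue, and with 1 library per group handling and HSO cannot be told apart.

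**Figure D4:**
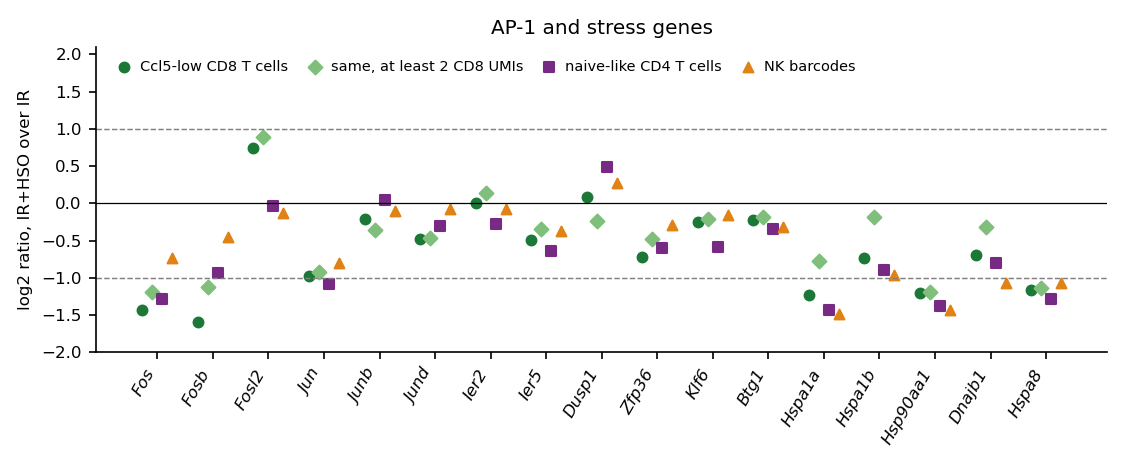
Log2 ratio of IR+HSO over IR for each measured AP-1 and stress gene in Ccl5-low CD8 T cells, in those with at least 2 CD8 UMIs, in naive-like CD4 T cells and in NK barcodes, with dashed lines at 2-fold. Hspa8 and Hsp90aa1 lie below -1 in all 4 sets, and Fos below -1 in all but NK barcodes (-0.73).

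A few regulators were higher in IR+HSO than in IR. Fkbp5, a chaperone of the glucocorticoid receptor and itself a glucocorticoid target, was at 281 CPM in IR+HSO, 125 CPM in IR and 21.6 CPM in Control and rose 2.24-fold (1.803 to 2.797) in IR+HSO over IR and 12.99-fold (10.1 to 16.9) over Control, the one gene of 11 measured in the glucocorticoid and FOXO list to pass in IR+HSO over IR. In IR over Control 3 of 10 of that list rose, Fkbp5, Ddit4 (194, 169 and 51.1 CPM in IR+HSO, IR and Control) and Klf9 (58.7, 35.4 and 7.56 CPM). Fkbp5 was at 208, 159 and 62.3 CPM in NK barcodes in the same order. Tox, a transcription factor of T cell development and exhaustion, was at 142 CPM in IR+HSO, 59.6 CPM in IR and 71.6 CPM in Control, and the inhibitory receptor gene Ctla4 at 76.9 CPM in IR+HSO, 30.3 CPM in IR and 12.2 CPM in Control. Both rose in IR+HSO over IR, out of 4 measured genes of the list on inhibitory receptors, and Ctla4 was at 166, 60.8 and 26.5 CPM in naive-like CD4 T cells of IR+HSO, IR and Control. The Ctla4 rise in IR over Control did not hold in members with at least 2 CD8 UMIs, at 6.52 against 7.85 CPM.

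Of 15 measured cytokine receptor genes none rose or fell in IR+HSO over IR, with a median of 0.57 beside 0.03, while with at least 2 CD8 UMIs Il4ra and Il18r1 rose out of 13 (median 0.55). Against Control, 6 of 15 rose in IR+HSO (0.83 beside 0.26). Of those 6, the IL-4 receptor gene Il4ra was at 123 CPM in IR+HSO, 71.8 CPM in IR and 43.5 CPM in Control, Il6ra at 221 CPM in IR+HSO, 138 CPM in IR and 102 CPM in Control and Il18r1 at 76.9 CPM in IR+HSO, 38.4 CPM in IR and 34.04 CPM in Control. With at least 2 CD8 UMIs 3 of 13 rose in IR+HSO over Control (median 0.22). Cish, a feedback inhibitor of cytokine signalling induced by STAT5, was at 133 CPM in IR+HSO, 79.8 CPM in IR and 5.94 CPM in Control and rose 13.4-fold (8.29 to 22.6) in IR over Control. In the list of activation genes Il2ra, Tnfrsf4 and Tnfrsf9 rose in IR over Control (3 of 11), and with at least 2 CD8 UMIs 1 of 8 did. Cd69, the early activation and retention receptor, was at 322 CPM in IR+HSO, 414 CPM in IR and 791 CPM in Control and fell in IR+HSO over Control. Of T cell receptor signalling genes, 0 of 18 passed 2-fold in IR over Control (median 0.09 beside 0.22) and in IR+HSO over IR (-0.12 beside 0.03). The phosphatase gene Ptpn22 alone rose in IR+HSO over Control. Of all genes measured 8.73%, 6.55% and 11.7% passed in these comparisons, so counts in so short a list are not read as a result.

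Lists on metabolism, of interest because HSO is a lipid, held few genes past 2-fold. Of all genes measured, 8.73% passed in IR over Control, 6.55% in IR+HSO over IR and 11.7% in IR+HSO over Control. Beside these shares, counts in such short lists are not read as a result on metabolism. Oxidative phosphorylation had 0 of 24 genes past 2-fold in each of the 3 comparisons, with medians of 0.25 in IR over Control, -0.24 in IR+HSO over IR and 0.14 in IR+HSO over Control. Of 9 measured genes for fatty acid uptake and oxidation, Cpt1a, the carnitine transferase that admits fatty acids to mitochondria, and Fabp5, a fatty acid carrier, rose in IR over Control, and none of 10 passed in IR+HSO over IR. Cpt1a was at 32.03 CPM in IR+HSO, 22.2 CPM in IR and 9.18 CPM in Control and Fabp5 at 22.4 CPM in IR+HSO, 30.3 CPM in IR and 11.6 CPM in Control. Of the synthesis genes Scd2, a desaturase, rose in IR over Control (1 of 10), at 83.3 CPM in IR+HSO, 65.7 CPM in IR and 31.6 CPM in Control, and Elovl6, an elongase, rose in IR+HSO over IR (1 of 11) on 19 against 6 UMIs. Of 16 antioxidant genes Txn1 alone rose in IR over Control and none passed in IR+HSO over IR. Of 13 glycolysis genes none passed in IR over Control or IR+HSO over IR, and Aldoa alone fell in IR+HSO over Control.

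**Figure D5:**
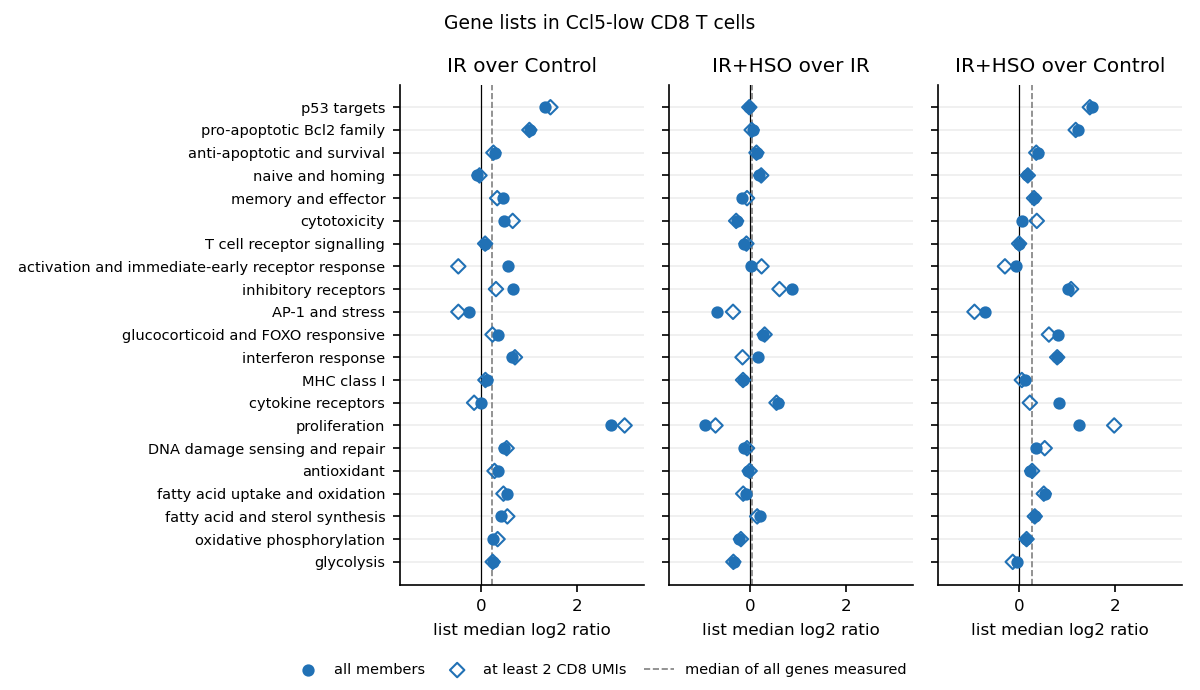
Median log2 ratio of the measured genes of 21 lists in Ccl5-low CD8 T cells for IR over Control, IR+HSO over IR and IR+HSO over Control, for all members (filled) and for those with at least 2 CD8 UMIs (open), with the median of all genes dashed (0.22, 0.03 and 0.26). The p53 and proliferation lists lie farthest right in IR over Control (1.34 and 2.71), and the proliferation (-0.94) and AP-1 and stress lists (-0.70) farthest left in IR+HSO over IR.

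Beyond the lists, the genes with the largest ratios were named by a fixed rule, the 12 highest and 12 lowest with at least 50 CPM in the higher library. Neb and Cox6b2, which rose in IR over Control, were at most 12.3 CPM in NK barcodes of any library. Neb, which encodes the giant muscle protein nebulin, was at 302 CPM in IR+HSO, 139 CPM in IR and 2.97 CPM in Control, with 271, 145 and 3.599 CPM in naive-like CD4 T cells and 11.1, 9.42 and 1.02 CPM in NK barcodes in the same order. It rose 46.9-fold (25.4 to 96.2) in IR over Control and a further 2.17-fold (1.76 to 2.68) in IR+HSO over IR. In members with at least 2 CD8 UMIs the log2 ratio of IR+HSO over IR was 0.86, under the threshold. Cox6b2, a testis-type subunit of cytochrome c oxidase, was at 104 CPM in IR+HSO, 63.7 CPM in IR and 0.2701 CPM in Control, the Control value resting on 1 UMI. Psrc1, a spindle protein gene that p53 regulates, was at 58.7 CPM in IR+HSO, 78.8 CPM in IR and 1.08 CPM in Control. The 12 highest in IR+HSO over Control held Drc1, a subunit of the dynein regulatory complex of cilia, at 59.8 CPM in IR+HSO, 61.6 CPM in IR and 1.35 CPM in Control, Trnp1, at 74.7 CPM in IR+HSO, 24.3 CPM in IR and 1.35 CPM in Control, Prelid2, at 116 CPM in IR+HSO, 55.6 CPM in IR and 5.13 CPM in Control, the protease inhibitor gene Serpina3g, at 61.9 CPM in IR+HSO, 21.2 CPM in IR and 1.35 CPM in Control, and Cish, with Cox6b2, Neb, Phlda3, Cdkn1a, Gzmb, Psrc1 and Gzma.

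The rest of the highest genes in IR over Control came mostly from single barcodes. Dcn, a proteoglycan of connective tissue, took 89.1% of its 275 IR UMIs from 1 barcode, Mgp 91.2% of 159, and the pancreatic products Zg16, Sycn, Rnase1 and Dmbt1 71.8%, 79.6%, 77.2% and 72.5%. These 6 were also the 6 lowest in IR+HSO over IR, followed by the MHC class II genes H2-Eb1, H2-Aa and H2-Ab1, which came from 8 to 12 barcodes in each irradiated library, and by Rnaset2a, Dapl1 and Cst3. The pancreatic list summed to 737 CPM in IR+HSO, 2742 CPM in IR and 1.35 CPM in Control members.

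Among the 12 lowest in IR over Control, Dapl1 led those spread over many cells. Myb, a transcription factor of progenitor and memory-precursor T cells, was at 13.9 CPM in IR+HSO, 27.3 CPM in IR and 84.02 CPM in Control and fell 3.08-fold (2.08 to 4.75) in IR against Control. Tent5a, a poly(A) polymerase, was at 23.5 CPM in IR+HSO, 29.3 CPM in IR and 98.9 CPM in Control, and Sidt1, of the family of RNA transporters, at 66.2 CPM in IR+HSO, 47.5 CPM in IR and 152 CPM in Control. Tagap, a GTPase-activating protein of T cells, Pou2f2 (Oct2), Gpr174, a receptor for lysophosphatidylserine, and Ms4a4c fell to 14.1, 35.4, 33.4 and 39.4 CPM in IR, against 50.5, 95.1, 83.2 and 102 CPM in Control. Klrd1 is given above, and Lyz2 took 85% of its Control UMIs from 1 barcode. In IR+HSO over Control the lowest 12 also held Art2b, a T cell ADP-ribosyltransferase, at 22.4 CPM in IR+HSO, 49.5 CPM in IR and 87.5 CPM in Control, and Hsph1, a heat-shock protein, at 39.5 CPM in IR+HSO, 134 CPM in IR and 179 CPM in Control, with Eomes, Fosb, Hspa1a, H2-Ab1 and H2-Eb1.

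The highest genes in IR+HSO over IR were largely those that also differed in other cells. Lars2, the mitochondrial leucyl-tRNA synthetase, was at 706 CPM in IR+HSO, 233 CPM in IR and 602 CPM in Control in members and at 714, 296 and 622 CPM in NK barcodes, in the same order, and is also among the 12 lowest in IR over Control. Gstp1, a glutathione transferase, was at 159 CPM in IR+HSO, 46.5 CPM in IR and 49.98 CPM in Control in members and at 83.01, 21.7 and 48.04 CPM in NK barcodes. Wdr89, Atp5g2, Atp5l and Sec61g had IR+HSO over IR log2 ratios of 1.69, 1.66, 1.56 and 1.54 in members and of 2.01, 1.83, 1.71 and 1.85 in NK barcodes. Atp2b4, a plasma membrane calcium pump, was at 57.7 CPM in IR+HSO, 18.2 CPM in IR and 5.403 CPM in Control in members, with 87.97, 18.1 and 4.25 CPM in naive-like CD4 T cells and 109, 83.8 and 75.6 CPM in NK barcodes. The histone gene H2ac24, at 615 CPM in IR+HSO, 99.04 CPM in IR and 49.4 CPM in Control, came from 32 barcodes in IR+HSO. Without members that had an Mki67 or Top2a UMI, the H2ac24 log2 ratio of IR+HSO over Control was negative, as given with the processing alternatives. In IR+HSO over IR, the comparison of these 12 genes, its log2 ratio did not change sign. Impact, a regulator of translation, Arhgap31 and Trnp1 were also among the 12, with 56.6, 62.99 and 74.7 CPM in IR+HSO against 15.2, 20.2 and 24.3 CPM in IR.

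Several of the genes above were also counted in Ccl5-positive CD8 T cells. Cdkn1a was at 159, 212 and 0.956 CPM and Bax at 402, 535 and 136 CPM in the Ccl5-positive cells of IR+HSO, IR and Control, Bcl2 at 1599, 1278 and 403 CPM, and Dapl1 at 31.2, 43.3 and 253 CPM. Neb was at 75.1, 41.5 and 1.91 CPM there, against 302, 139 and 2.97 CPM in the Ccl5-low cells, and Igfbp4 at 116, 124 and 10.5 CPM, against 540.2, 471 and 96.4 CPM. With 1 library per group none of these contrasts between cell types was tested.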

How the data were processed

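The deposited values were counts, whole-number UMIs per gene and barcode in filtered 10x matrices. Per the file headers the authors ran Cell Ranger 7.0.1 to make them, and per the submitters' processing notes the build was GRCm39. The matrices hold 56980 genes. From these, barcodes were chosen by the rule in the report and their UMIs summed per library and gene to CPM, UMI counts scaled to the members' total. Log2 ratios and calls use CPM with 1 added, and folds with an interval use CPM alone, for genes with at least 20 CPM in either library. Intervals are exact 95% Poisson intervals for genes and share ratios and exact Clopper-Pearson ones for shares. They cover counting error only. For shares of barcodes with a UMI, each barcode was thinned to 1000 UMIs, which left out 16 IR+HSO, 21 IR and 4 Control members.

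B barcodes had at least 2 Cd79a or Cd79b UMIs, and NK barcodes at least 1 UMI of Ncr1 or Klrb1c, none of Cd79a or Cd79b, both without Cd3 transcripts. The genes named are the 12 highest and 12 lowest per comparison, list members past 2-fold and genes named for their role. Immunoglobulin, T cell receptor segment, mitochondrial, ribosomal protein, haemoglobin, listed pancreatic and predicted genes were left out. Other genes given with values were chosen after their values were seen. The members and gene lists were chosen with earlier results of these data known. The scripts were tested on simulated data. Python 3.11.15, numpy 2.4.6, scipy 1.17.1, pandas 2.3.3 and matplotlib 3.10.9 were used, with R 4.3.3 and edgeR 4.0.16 for TMM scaling as an alternative. Results for some genes are not reported here.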

Additional observations from a re-analysis of the deposited data

Results flagged for a closer look

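Ccl4, which encodes a chemokine, had a log2 ratio of -1.11 in IR over Control in Ccl5-low CD8 T cells, at 9.10 CPM in IR against 20.8 CPM in Control, while Ccl5-positive CD8 T cells had the opposite sign, with 1.19, at 99.3 CPM in IR against 43.0 CPM in Control. In the Ccl5-low Control members 67.5% of the Ccl4 UMIs came from 1 barcode. Cxcl10, a chemokine induced by interferon, had 2.46 in IR+HSO over IR in Ccl5-low cells, at 26.7 CPM in IR+HSO against 4.04 CPM in IR, and -1.44 in Ccl5-positive cells, at 11.6 CPM in IR+HSO against 33.1 CPM in IR. In the Ccl5-low IR+HSO members 32% of the Cxcl10 UMIs came from 1 barcode. With at least 2 CD8 UMIs its log2 ratio was 1.49, at levels under the 20 CPM minimum. Dcn had -4.13 in IR+HSO over IR in Ccl5-low cells, at 14.9 CPM in IR+HSO against 278 CPM in IR, and 1.74 in Ccl5-positive cells, at 80.9 CPM in IR+HSO against 23.5 CPM in IR, with 89.1% of the IR UMIs in Ccl5-low cells from 1 barcode. None of these differences between cell types was tested.

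Listed pancreatic transcripts, which no T cell is known to make, summed to 737 CPM in IR+HSO members and 2742 CPM in IR members, above the 1.35 CPM in Control members. In members with at least 6 CD8 UMIs they summed to 433 CPM in IR+HSO and 849 CPM in IR. Other cells of IR+HSO and IR held them too, at 499 and 807 CPM in Ccl5-positive CD8 T cells, 664 and 1055 CPM in naive-like CD4 T cells and 8541 and 3603 CPM in NK barcodes. Barcodes that met the rest of the rule but had 10% or more mitochondrial UMIs numbered 46 in IR+HSO and 15 in IR, against 21 in Control, or 16.4, 5.68 and 3.13 per 100 members. Their median depth was 1262 UMIs in IR+HSO, 1246 in IR and 1006 in Control. These differences were not tested.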

How the results depend on the processing

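No paired analysis was possible because each group has 1 library. Of 3420 gene values under the alternatives, 2994 stayed within their counting interval, 414 moved outside it and 12 reversed. Of 540 list medians 503, 36 and 1 did. A change of sign was counted as reversed only where the main log2 value was at least 1 in size. The minimum of 50 CPM, no minimum and the removal of genes from 1 barcode cannot change a gene's own ratio. Gene values under these alternatives were thus the same by construction. With at least 2 CD8 UMIs, no Ccl5 UMI and at least 6 CD8 UMIs, the IR over Control share ratio was 0.105, 0.123 and 0.0867, and the IR+HSO over Control ratio 0.1505, 0.178 and 0.0936, or 0.188 with the rule read at 1000 UMIs. The IR+HSO over IR ratio stayed within its interval, but how far these 2 libraries lay apart depended on the setting. With a mitochondrial share under 5% the shares were 2.96% in IR+HSO and 2.67% in IR, each within the other's interval. The same held with at least 6 CD8 UMIs, at 0.969% and 0.897%. With at least 2 CD8 UMIs (2.07% and 1.44%) and with no Ccl5 UMI (2.39% and 1.65%) the intervals did not overlap. Counts depended most on the thresholds. With no minimum, at 50 CPM, at 1.5-fold and after thinning, genes numbered 2599, 210, 1242 and 970 higher and 1072, 34, 237 and 285 lower in IR over Control, 2996, 63, 874 and 820 higher and 2620, 103, 711 and 685 lower in IR+HSO over IR, and 3179, 241, 1664 and 1253 higher and 1133, 69, 358 and 323 lower in IR+HSO over Control. TMM and median-of-ratios gave 170 and 161 lower in IR over Control, and 333 and 334 higher and 276 and 276 lower in IR+HSO over Control. Leaving free-RNA classes out of the total gave 162 lower in IR over Control, 424 higher in IR+HSO over IR and 227 lower in IR+HSO over Control. At least 2 CD8 UMIs gave 120 lower in IR over Control and 336 higher in IR+HSO over IR, and at least 6 gave 151 lower in IR over Control, 442 higher and 397 lower in IR+HSO over IR, and 208 lower in IR+HSO over Control. No Ccl5 UMI gave 401 and a pseudocount of 5 gave 136 higher in IR+HSO over IR. Reversed log2 values in IR over Control were Cst3 -1.25 at 6 CD8 UMIs, Ctla4 -0.24 at 2 and -0.47 at 6, and Sec61g 0.28 thinned. In IR+HSO over IR they were H2-Aa 0.96, H2-Eb1 2.64 and Serpina3g -0.28 at 6, Mgp 0.093 at 2 and 0.24 at 6, and Prelid2 -0.12 and Trnp1 -0.12 thinned. Without cycling members IR+HSO over Control had H2ac24 at -0.37 and the proliferation median at -0.15. The minimum of 6 CD8 UMIs, the removal of cycling members and that of genes from 1 barcode were chosen after seeing the data. Thinning and stricter members leave fewer UMIs; the cause of the other shifts was not tested. The IR+HSO and IR members hold 936619 and 989488 UMIs, so genes near 20 CPM rest on few UMIs.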

Other observations

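A few IR members carried transcripts of immature lymphocytes. Rag1, the recombinase of antigen receptor genes, had 0 UMIs in IR+HSO members, 19 in IR members, from 5 barcodes, and 0 in Control members. Arpp21, which is high in thymocytes, had 1, 21 and 1 UMIs in the same order. Both genes were chosen after their values were seen.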
